A study of Rattus norvegicus with 20 samples.

Results

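Collagen, matrix and fibrosis genes were described in the left ventricle (LV) and brain of rats with stress cardiomyopathy (SCM). The members were chosen by their Ensembl rat identifiers, which were listed for 10 genes, namely Col1a1, Col1a2, Col3a1, Fn1, Postn, Lox, Mmp2, Timp1, Tgfb1 and Ccn2. The table holds 24160 features, of which 9 were members, since no row carried the identifier listed for Timp1, which is not analysed here. Male Sprague-Dawley rats, an outbred stock, weighing 250 to 300 g were used. The age of the rats is not given in the sources used here, and both groups share stock, sex and weight range. Immobilization stress, 6 hours and 7 days as the labels give it, made the 5 SCM rats, and the 5 control rats formed the normal control group. Brain and LV were each sequenced once from every rat, which gave 4 groups of 5 libraries. Rats are named C1 to C5 (control) and M1 to M5 (SCM) after the labels, in which the same number in both groups belongs to different rats.

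The fibrillar collagens form the load-bearing fibres of the space between cells. Type I collagen is built from chains encoded by Col1a1 and Col1a2, and type III collagen from chains encoded by Col3a1. In the heart these genes are known as products of fibroblasts, and their output is known to rise in fibrosis. Fibronectin (Fn1) and periostin (Postn) are matrix glycoproteins, lysyl oxidase (Lox) cross-links collagen and elastin, and matrix metalloproteinase 2 (Mmp2) cleaves matrix proteins. Transforming growth factor beta 1 (Tgfb1) is a secreted signal that drives matrix genes, and Ccn2, also called connective tissue growth factor, is one of its classical targets.

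The values were whole read counts per gene, and the total per library ranged from 22386526 to 36251990. Levels are given in CPM, the count as a share of the TMM-normalized library total. TMM was computed within each tissue, so CPM of the LV and of the brain are not on one scale, and the tissues are compared only by a joint fit or by ratios within a library. Levels are compared between libraries of a tissue and not between genes, because CPM is not corrected for gene length. Libraries of the same tissue had a Spearman correlation across features of 0.963 to 0.982, and libraries of different tissues one of 0.803 to 0.822, so every library lay with its labelled tissue. The labelled tissues were not checked against marker genes, nor were other genes of the matrix and TGF-beta pathways described, because the identifiers are not paired with symbols here. The replicate that stood apart most in the LV was control rat C5, in which 50 genes exceeded 3 times the next highest control, against 11 to 18 in the other controls, and 8 to 41 in the SCM rats.

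In the LV, the 3 fibrillar collagen genes and Mmp2 were lower in SCM rats than in control rats. The collagen transcripts were lower by 4.67-fold to 5.54-fold, and Mmp2 by 1.71-fold. No member was called higher. By the quasi-likelihood test of edgeR, with p-values adjusted (Benjamini-Hochberg) over all 13954 genes tested, 4 of the 9 members had an adjusted p under 0.05, all 4 of them lower, whereas 5.21% of all genes tested were called and 2.88% were called lower. The log2 fold change was negative for 7 of the 9 members and for 51.6% of all genes, and its median was -0.78 over the members and -0.01 over all genes. Without C5, 5 members and 7.07% of all genes were called, and the log2 fold changes were -1.87 for Col1a1, -2.22 for Col3a1, -2.39 for Col1a2 and -0.70 for Mmp2. In whole tissue, fewer cells that make collagen and less collagen RNA per cell cannot be told apart.

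Col1a1 (ENSRNOG00000003897) was at 83.5, 66.6, 142, 84.4 and 225 CPM in the LV of C1 to C5 and at 26.2, 17.1, 41.5, 26.0 and 17.5 CPM in that of M1 to M5. The lowest control lay above the highest SCM rat, and the groups did not overlap. The mean was 120.1 ± 64.9 CPM (SD, n = 5) in control and 25.7 ± 9.91 CPM (SD, n = 5) in SCM. The log2 fold change was -2.23 (SE 0.35), a 4.67-fold lower level (edgeR, adjusted p = 0.00673).

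Col3a1 (ENSRNOG00000003357) was at 336, 374, 647, 333 and 821 CPM in C1 to C5 and at 84.2, 72.6, 145, 83.6 and 67.4 CPM in M1 to M5. Here too every SCM rat lay below every control. The mean fell from 502 ± 221 CPM (SD, n = 5) to 90.6 ± 31.5 CPM (SD, n = 5), a log2 fold change of -2.47 (SE 0.30) and a 5.54-fold lower level (edgeR, adjusted p = 0.00282). By p-value the gene ranked 13 of 13954, the highest rank of any member. C5 and C3 were the highest controls for both Col1a1 and Col3a1, and M3 was the highest SCM rat for both.

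Col1a2 (ENSRNOG00000011292), which encodes the partner chain of Col1a1, had a similar mean change with a wider spread. It was at 27.2, 42.3, 5.09, 33.7 and 29.5 CPM in C1 to C5 and at 5.23, 10.8, 1.97, 1.75 and 6.32 CPM in M1 to M5. The groups overlapped through C3, which had the lowest Col1a2 of the controls and the second highest Col1a1. The log2 fold change was -2.41 (SE 0.57), a 5.32-fold lower level (edgeR, adjusted p = 0.0326). The exact two-sided permutation test of log2(CPM + 0.5) gave p = 0.0317. This call depended on single libraries, since leaving out any of C1, C2, C4, M1, M4 and M5 brought the adjusted p to between 0.056 and 0.0723, with log2 fold changes of -2.49 to -2.19. It also depended on the method, since limma-voom over all LV libraries gave an adjusted p of 0.0798. The Col1a2 count also varied 17.7-fold relative to that of Col1a1 across the LV libraries. Its fold change and call are therefore less certain than those of Col1a1 and Col3a1. How reads of overlapping genes were counted is not given in the sources used here, and whether it affected Col1a2 was not tested.

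Promoter sequences were held by the reference for 4 of the 9 members, and those of 3 are shown because their genes had different LV values, lower in SCM with a call (Col1a2), lower without one (Postn) and near no difference (Ccn2). Each is the 250 bases before the RefSeq start, in assembly GRCr8 and not in the build of the counts, read 5′ to 3′ on the gene's strand. Capitals mark the TATA box letters TATAAA and the CCAAT box letters, here found in reverse as ATTGG. The positions are chr4:33518307-33518556 on the plus strand for Col1a2, chr2:140677811-140678060 on the plus strand for Postn and chr1:22624615-22624864 on the minus strand for Ccn2.
Col1a2: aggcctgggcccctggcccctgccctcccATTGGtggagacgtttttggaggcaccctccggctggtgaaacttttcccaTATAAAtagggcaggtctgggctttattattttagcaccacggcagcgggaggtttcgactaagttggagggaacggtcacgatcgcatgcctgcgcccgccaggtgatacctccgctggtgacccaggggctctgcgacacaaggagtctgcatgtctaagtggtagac
Postn: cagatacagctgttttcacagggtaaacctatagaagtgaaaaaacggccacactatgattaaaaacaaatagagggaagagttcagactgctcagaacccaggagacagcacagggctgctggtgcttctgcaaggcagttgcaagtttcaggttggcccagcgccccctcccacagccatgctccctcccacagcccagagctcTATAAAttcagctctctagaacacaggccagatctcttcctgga
Ccn2: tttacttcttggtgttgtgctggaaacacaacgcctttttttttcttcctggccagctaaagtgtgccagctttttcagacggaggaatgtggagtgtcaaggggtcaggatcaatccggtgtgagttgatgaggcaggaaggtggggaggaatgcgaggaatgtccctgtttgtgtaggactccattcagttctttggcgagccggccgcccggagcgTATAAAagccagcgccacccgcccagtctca

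The TATAAA match began 31 bases before the start in Ccn2, 44 in Postn and 170 in Col1a2, and the ATTGG match began 221 bases before it in Col1a2. Both motifs were searched on both strands of all 33469 promoters, of which 12.9% held TATAAA and 34.0% held CCAAT. The Tgfb1 promoter, the fourth that was available, held neither set of letters. The SMAD-type letters CAGAC, which 42.9% of all promoters held, were searched on both strands too. They were found once in Ccn2 and once in Postn as printed, 2 times in Col1a2 in reverse as GTCTG, and not in Tgfb1. These matches describe the sequences only.

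Mmp2 (ENSRNOG00000016695), which acts on the matrix outside the cell, had the smallest spread of the members called. It was at 126, 103, 137, 122 and 157 CPM in C1 to C5 and at 78.0, 72.0, 88.5, 76.6 and 61.9 CPM in M1 to M5. The groups did not overlap, and C5 and M3 were again the highest of their groups. The mean was 129 ± 19.99 CPM (SD, n = 5) in control and 75.4 ± 9.67 CPM (SD, n = 5) in SCM, with a log2 fold change of -0.78 (SE 0.12) and an adjusted p of 0.00673 by edgeR. Of the members called, only the 3 collagens also passed a limit of 2 on the log2 fold change in the LV, as did 0.229% of all genes tested. The study applied this limit to changes in both LV and brain, and no member was called in the brain, so none met it there.

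For Col1a1, Col3a1 and Mmp2, whose groups did not overlap, the exact permutation test gave p = 0.00794, the smallest that the splits of 10 libraries into 5 and 5 allow. Over all genes tested in the LV, 555 genes (3.98%) had every SCM rat below every control.

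**Figure D1:**
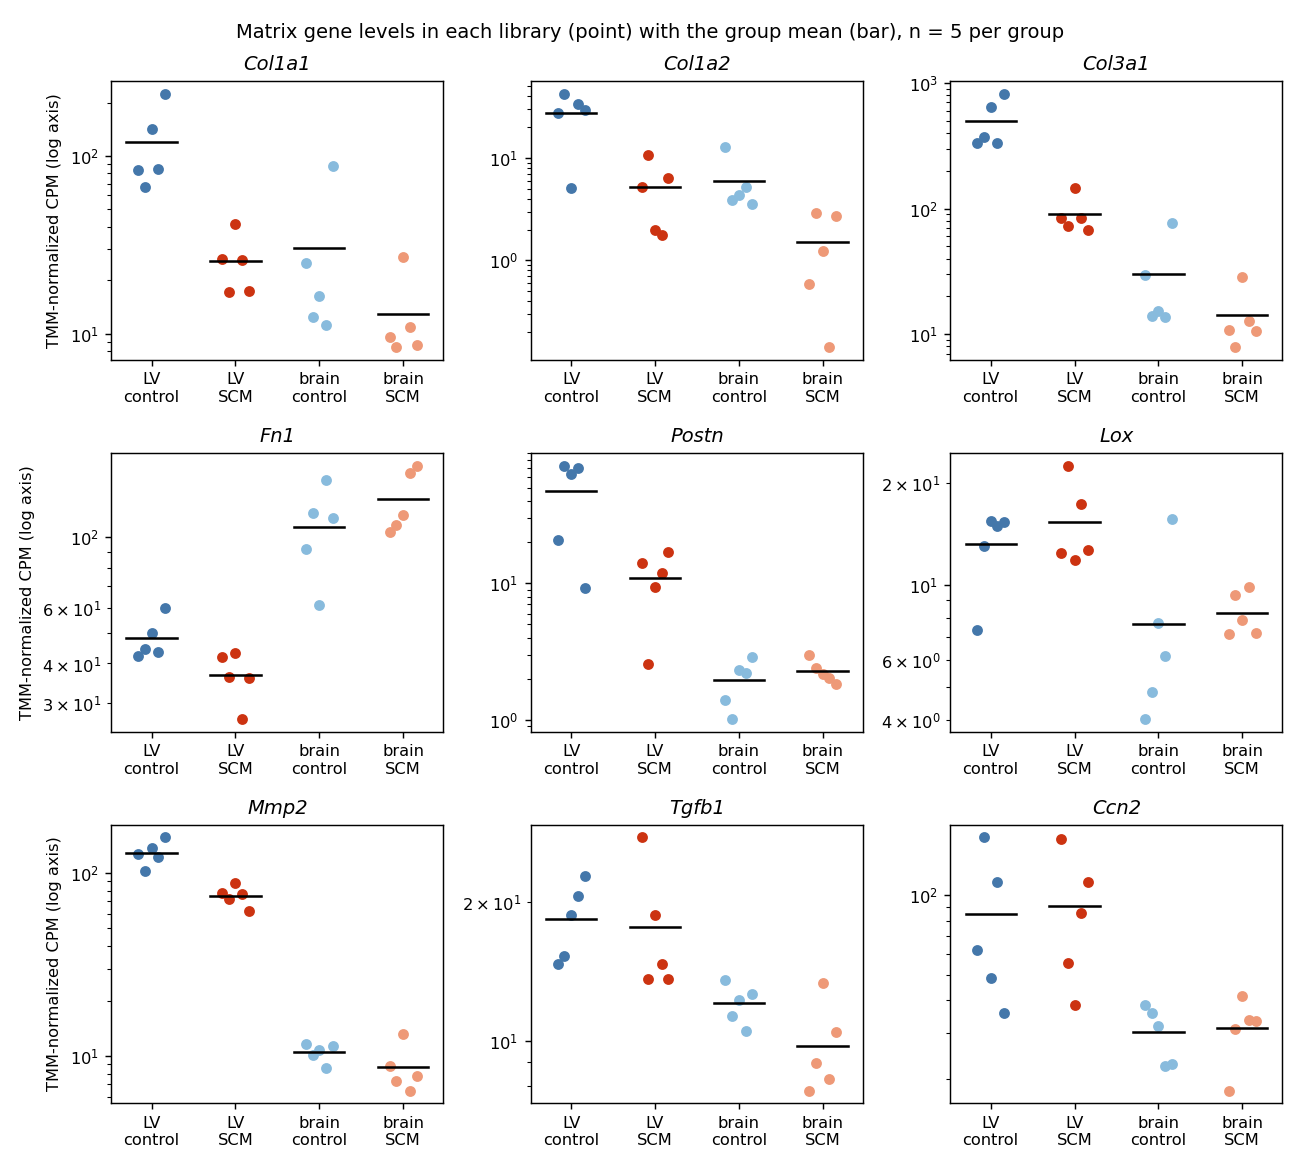
TMM-normalized CPM on a log axis of the 9 members in each library (points) by tissue and group, with the mean of 5 libraries as a bar, where CPM was normalized within each tissue and is comparable only within it. In the LV, the SCM points of Col1a1 (17.1 to 41.5 CPM), Col3a1 (67.4 to 145 CPM) and Mmp2 (61.9 to 88.5 CPM) all lie below the control points, whereas those of Lox, Tgfb1 and Ccn2 are mixed with them.

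Among the matrix glycoproteins, Postn (ENSRNOG00000012660) was at 20.6, 73.3, 63.6, 70.6 and 9.25 CPM in C1 to C5 and at 14.01, 2.57, 9.41, 12.0 and 16.9 CPM in M1 to M5. Of the controls, C5 lay within the SCM range and the other 4 lay above it. The log2 fold change was -2.11 (SE 0.57) with an adjusted p of 0.0521 by edgeR, just outside the threshold, and the exact permutation test gave p = 0.0556. Without C5 the log2 fold change was -2.38 (adjusted p = 0.0139). Fn1 (ENSRNOG00000014288) was at 42.3 to 59.7 CPM in control and 26.7 to 43.2 CPM in SCM, with 4 of 5 SCM rats below the lowest control. Its log2 fold change of -0.38 (95% interval -0.68 to -0.08) had an adjusted p of 0.12 by edgeR, and the exact permutation test gave p = 0.0159 without adjustment.

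The cross-linking enzyme and the signals had no call in the LV. Lox (ENSRNOG00000014426) ranged from 7.38 to 15.4 CPM in control and from 11.8 to 22.5 CPM in SCM, with a log2 fold change of 0.22 (95% interval -0.28 to 0.71, edgeR adjusted p = 0.603). Tgfb1 (ENSRNOG00000020652) ranged from 14.7 to 22.7 CPM in control and from 13.6 to 27.6 CPM in SCM. Its log2 fold change was -0.06 (95% interval -0.50 to 0.39, edgeR adjusted p = 0.894), and the highest value of both groups was that of M1. Ccn2 (ENSRNOG00000015036) varied most within a group among these, from 35.8 to 166 CPM in control and from 38.4 to 164 CPM in SCM. Its log2 fold change was 0.10 with a 95% interval of -0.87 to 1.07 (edgeR adjusted p = 0.922). Tgfb1 and Ccn2 were positive or negative depending on which rat was left out.

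**Figure D2:**
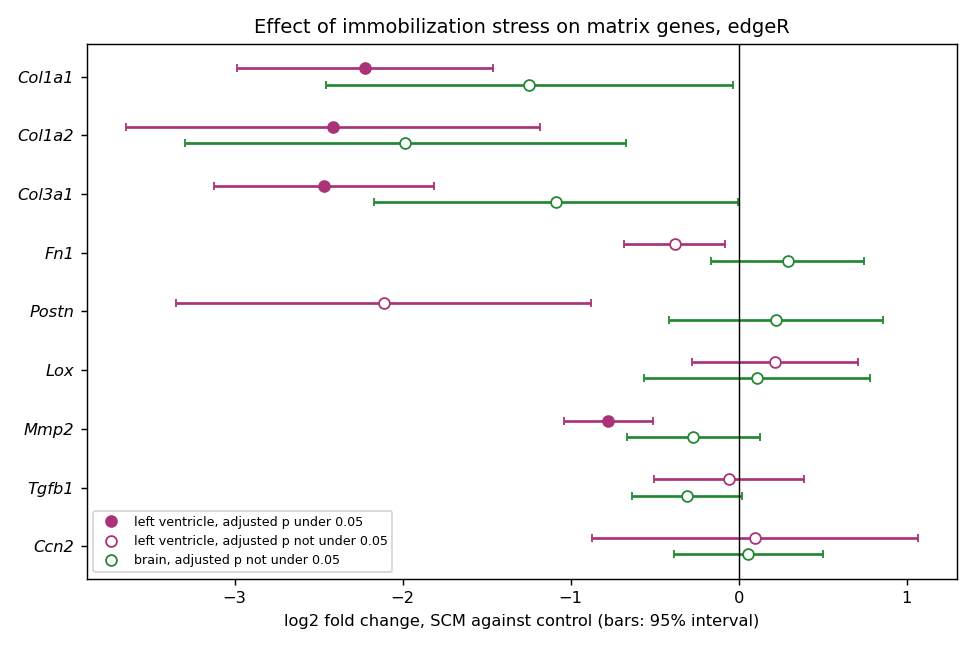
Log2 fold change of SCM against control by edgeR for the 9 members, with 95% intervals, in the LV and the brain. Filled points mark an adjusted p under 0.05, which Col1a1, Col1a2, Col3a1 and Mmp2 reached in the LV and no member reached in the brain.

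In the brain, no member was called. Of 16002 genes tested, 28 (0.175%) had an adjusted p under 0.05, and the 9 members gave 0. At an unadjusted p under 0.05 the same test gave 3 members, the fibrillar collagens, and 14.3% of all genes, and DESeq2 and limma-voom gave 0 at an adjusted p under 0.05, where they called 2.51% and 0.181% of all genes. The collagens were the members with the most negative estimates, the median log2 fold change being -0.27 over the members and 0.003 over all genes.

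Col1a2 was at 12.9, 3.90, 4.37, 5.16 and 3.59 CPM in the brain of C1 to C5 and at 0.587, 2.88, 1.24, 0.143 and 2.69 CPM in that of M1 to M5. Every SCM rat lay below every control, which was true of 284 genes (1.77%) in the brain. The log2 fold change was -1.98 (95% interval -3.30 to -0.67), with an unadjusted p of 0.00625 and an adjusted p of 0.197 by edgeR. The exact permutation test gave p = 0.00794, the smallest it can give. Raw counts of Col1a2 were low in the SCM brain, from 4 in M4 to 97 in M2, and 112 to 345 in the control brain. Leaving out 1 rat at a time kept the log2 fold change between -2.38 and -1.50.

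The estimates of Col1a1 and Col3a1 in the brain moved most with C5 and M3. Col1a1 was at 25.0, 12.4, 16.3, 11.2 and 87.7 CPM in C1 to C5 and at 9.56, 8.38, 27.0, 10.9 and 8.58 CPM in M1 to M5. Col3a1 was at 29.7, 14.1, 15.4, 13.8 and 76.9 CPM in C1 to C5 and at 10.7, 7.91, 28.7, 12.8 and 10.5 CPM in M1 to M5. In both genes C5 was far above the other controls and M3 far above the other SCM rats, of which all 4 lay below the lowest control. The log2 fold changes were -1.25 (edgeR adjusted p = 0.338) and -1.09 (adjusted p = 0.347), and without C5 they were -0.33 (adjusted p = 0.743) and -0.37 (adjusted p = 0.706). Without M3 they were -1.70 (adjusted p = 0.151) and -1.51 (adjusted p = 0.148).

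The groups overlapped in the brain for the other members. Mmp2 was at 8.55 to 11.6 CPM in control and 6.46 to 13.2 CPM in SCM, and its log2 fold change was -0.27 (95% interval -0.67 to 0.13, edgeR adjusted p = 0.51). Tgfb1 was at 10.5 to 13.6 CPM in control and 7.80 to 13.3 CPM in SCM, and 4 of 5 SCM rats lay below the lowest control (log2 fold change -0.31, edgeR adjusted p = 0.371). Fn1 was at 61.3 to 151 CPM in control and 104 to 168 CPM in SCM, the opposite sign to the LV, with a log2 fold change of 0.29 (95% interval -0.17 to 0.75, edgeR adjusted p = 0.542). For Postn, Lox and Ccn2 the log2 fold changes were 0.22, 0.11 and 0.06, and the adjusted p by edgeR was at least 0.755.

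Whether the SCM effect differed between LV and brain was tested by a tissue by stress interaction, blocked on the rat. Of 16720 genes tested, 126 (0.754%) were called, and 0 of the 9 members were among them by edgeR, though 5 members had an unadjusted p under 0.05, as did 13.9% of all genes. The effect of SCM in the LV minus that in the brain was -1.57 on the log2 scale (SE 0.34, adjusted p = 0.0633) for Col3a1 and -1.26 (SE 0.31, adjusted p = 0.0927) for Col1a1. For Postn it was -2.26 (SE 0.75, adjusted p = 0.194), and for Col1a2 it was -0.27 with a 95% interval of -1.78 to 1.24 (adjusted p = 0.917). Without C5 the interaction passed the threshold for 3 members and 1.29% of all genes, with -1.80 for Col3a1 (adjusted p = 0.0242), -1.50 for Col1a1 (adjusted p = 0.0242) and -2.90 for Postn (adjusted p = 0.0318).

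Between the tissues of the control rats, most matrix genes were higher in the LV. With the rat as a block, 8 of the 9 members were lower in the brain at an adjusted p under 0.05, in a comparison where 79.7% of the 15909 genes tested were called and 37.1% were called lower in the brain. Col3a1 was 35.5-fold lower in the brain (edgeR, adjusted p = 2.63e-06), Postn 35.4-fold (adjusted p = 9.16e-05) and Mmp2 21.8-fold (adjusted p = 2.76e-08). Col1a1 was 8.79-fold lower and Col1a2 7.78-fold lower, with an adjusted p of at most 0.000666. The signals and the cross-linking enzyme differed less, by 4.38-fold for Ccn2, 3.33-fold for Lox and 2.69-fold for Tgfb1. Fn1 was the exception, with a log2 difference of brain minus LV of 0.28 (adjusted p = 0.209), which without C3 was 0.49 (adjusted p = 0.0236).

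The share of all counts that fell on Col1a1, Col1a2 and Col3a1 together was 0.044% to 0.116% in the control LV and 0.0088% to 0.0191% in the SCM LV. It was 0.00298% to 0.0176% in the control brain and 0.00179% to 0.00587% in the SCM brain. The LV groups did not overlap in this share, which uses no normalization beyond the total count, whereas the brain groups did.

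The covariation of the members across the LV libraries was examined over all 36 pairs as the Pearson correlation of log2(CPM + 0.5) in 10 libraries. Over all 10 libraries, 6 pairs had an adjusted p under 0.05 by a permutation test, adjusted over the 36 pairs. Each of these pairs holds Col1a1, Col3a1 or Mmp2, whose groups do not overlap, so no pooled correlation is given. Each value was instead centred on its group mean and permuted within groups, and 2 pairs then had an adjusted p under 0.05. Col1a1 and Mmp2 had r = 0.923 (permutation p = 0.000903, adjusted p = 0.0288) and rho = 0.939 (permutation p = 0.000972, adjusted p = 0.035). Col1a1 and Col3a1 had r = 0.947 (permutation p = 0.0016, adjusted p = 0.0288) and rho = 0.77 (permutation p = 0.0208, adjusted p = 0.15). Without the 2 libraries farthest from the median of Col1a1, r was 0.838 and 0.845. Col3a1 and Mmp2 had r = 0.825 (permutation p = 0.00722, adjusted p = 0.0866) and rho = 0.855 (permutation p = 0.00708, adjusted p = 0.127), and r was 0.585 without 2 libraries. Among rats of the same group, those high in Col1a1 were thus also high in Col3a1 and Mmp2.

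Over all 36 centred pairs the median r was 0.03, as against 0.0 over all 97350081 pairs of tested genes, and 3 of the 36 reached an absolute r of 0.8, which 1.60% of all pairs did. Col1a2 had r = -0.551 with Col1a1 (permutation p = 0.125, adjusted p = 0.329) and rho = -0.661 (permutation p = 0.0591, adjusted p = 0.223). Without the 2 libraries farthest from the median of Col1a1, this r was -0.872. Over all 10 libraries Ccn2 had the lowest r of any pair, -0.748 with Mmp2 (permutation p = 0.0224, adjusted p = 0.202). Its rho was -0.745 (permutation p = 0.03, adjusted p = 0.18), and r was -0.529 without 2 libraries. Within these 10 libraries C5 had the highest Col1a1, Col3a1, Mmp2 and Fn1 and the lowest Ccn2.

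**Figure D3:**
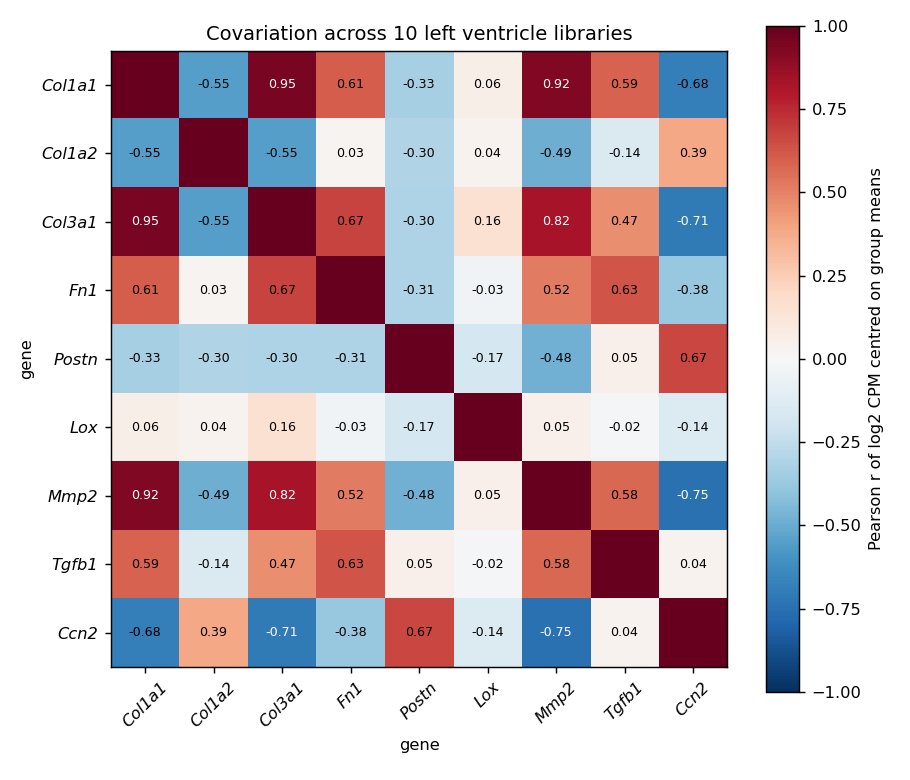
Pearson r of log2(CPM + 0.5), centred on the group mean, for each pair of the 9 members over 10 LV libraries, as a colour scale from -1 to 1. Col1a1, Col3a1 and Mmp2 form a group with r of 0.825 to 0.947, and Col1a2 has r of -0.551 with Col1a1.

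Outside the members, genes were ranked by the Pearson r of their log2 level with the mean of the 3 z-scored collagens over the 10 LV libraries, a measure that includes the difference between the groups. The first 2 in this order carried the identifiers ENSRNOG00000061484 and ENSRNOG00000002746, and centred on group means their r was 0.778 and 0.884, so the order within groups is another. The former was at 37.2 ± 4.35 CPM (SD, n = 5) in control and 23.0 ± 2.05 CPM (SD, n = 5) in SCM. The latter was at 88.2 ± 17.5 CPM (SD, n = 5) in control and 50.6 ± 4.34 CPM (SD, n = 5) in SCM. They were selected for this measure, so no test is given.

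The LV and brain of the same rat were compared for each member, as the deviation of log2(CPM + 0.5) from the group mean in each tissue. This relation was chosen after the values were seen. For Col1a1, C5 was 1.05 above the control mean in the LV and 1.98 above it in the brain, and M3 was 0.76 above the SCM mean in the LV and 1.19 above it in the brain. Over 10 rats, r was 0.838 for Col1a1 (permutation p = 0.011, adjusted p = 0.099 over 9 members) and rho was 0.661 (permutation p = 0.0672, adjusted p = 0.299). For Col3a1, r was 0.714 (permutation p = 0.0288, adjusted p = 0.13) and rho was 0.6 (permutation p = 0.133, adjusted p = 0.299). Without the 2 rats farthest from the median in the LV, r was 0.344 and -0.144, so the relation rests on those rats. Of the other members, Lox had r = 0.62 (permutation p = 0.107, adjusted p = 0.281) and rho = 0.697 (permutation p = 0.0328, adjusted p = 0.295), with deviations of the same sign in 8 of 10 rats. Mmp2 had r = 0.518 (permutation p = 0.125, adjusted p = 0.281), the same sign in 8 of 10 rats, and r = 0.63 without 2 rats. Col1a2 had r = 0.431, and r was negative for Fn1, Postn, Tgfb1 and Ccn2, from -0.379 to -0.208, with an adjusted p of at least 0.387 for these 5. Over all 13379 genes tested in both tissues the median r was 0.131, and 1.14% of genes had at least the r of Col1a1 and 4.37% at least that of Col3a1.

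**Figure D4:**
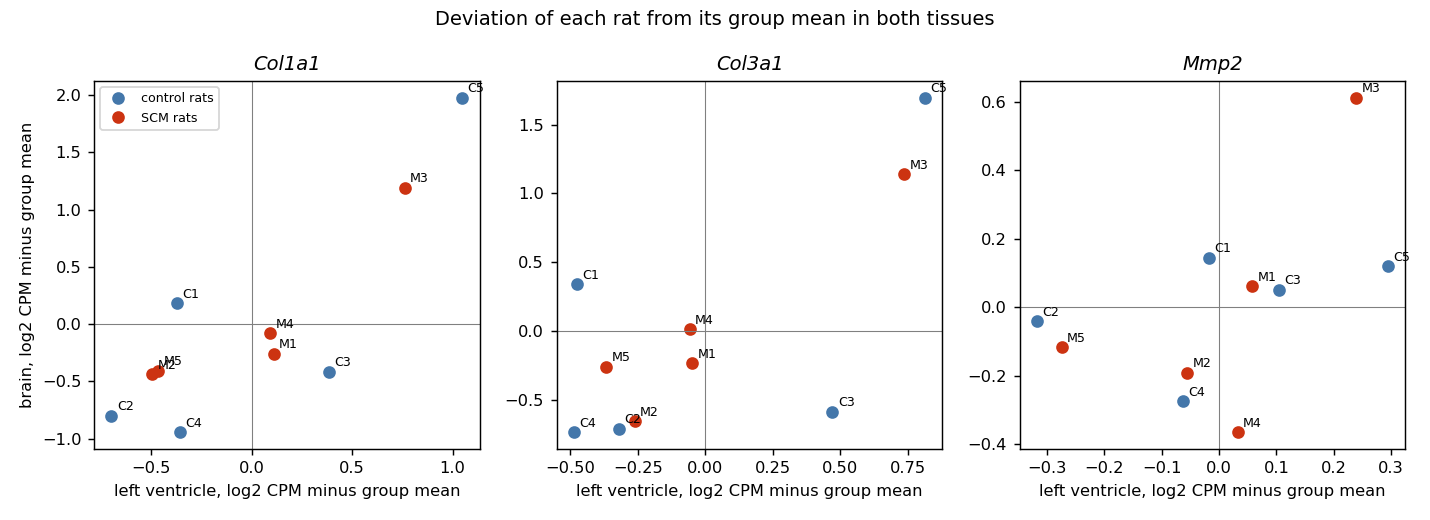
Deviation of log2(CPM + 0.5) from the group mean in the brain against that in the LV for Col1a1, Col3a1 and Mmp2, 1 point per rat. C5 and M3 stand at the upper right for Col1a1 and Col3a1, and without the 2 rats farthest from the median in the LV r was 0.344 for Col1a1 and -0.144 for Col3a1.

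Ratios of counts within a library do not depend on normalization between libraries. They were also chosen after the values were seen. The Col1a1 to Col3a1 ratio was 0.178 to 0.274 in the control LV and 0.236 to 0.312 in the SCM LV, a difference with p = 0.0794 by the exact permutation test. In the brain it was 0.805 to 1.14 in control and 0.814 to 1.06 in SCM (exact permutation p = 0.746). The ratio was higher in the brain in 10 of 10 rats, by 1.86 on the log2 scale (exact sign-flip p = 0.00195, the smallest 1024 arrangements allow). The LV and brain ranges of the ratio did not overlap.

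The Col1a2 to Col1a1 ratio behaved otherwise, with a 17.7-fold range in the LV and a 39.3-fold range in the brain. It was 0.325, 0.635, 0.036, 0.399 and 0.131 in the LV of C1 to C5 and 0.199, 0.631, 0.0474, 0.0676 and 0.362 in that of M1 to M5. In the brain it was 0.516, 0.315, 0.268, 0.463 and 0.0409 in C1 to C5 and 0.0614, 0.344, 0.0461, 0.0131 and 0.314 in M1 to M5. Low values came from both groups, C3, M3 and M4 being lowest in the LV and C5, M3 and M4 in the brain. The log2 difference of SCM from control in this ratio was -0.28 in the LV (exact permutation p = 0.786) and -1.54 in the brain (exact permutation p = 0.222). Whether strand was used in counting is not given in the sources used here.

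**Figure D5:**
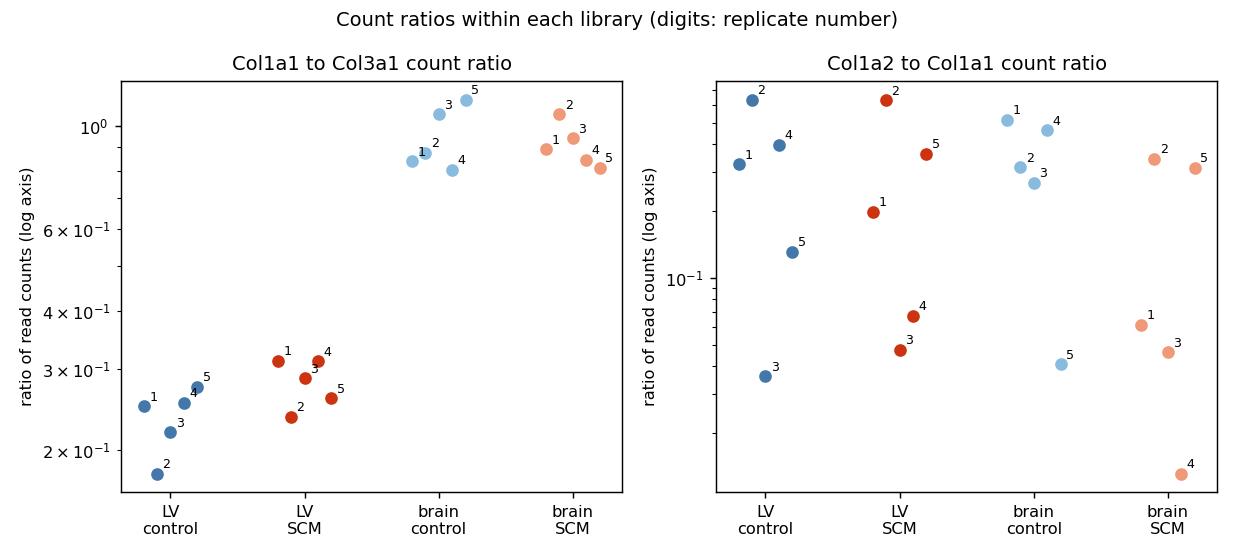
Ratio of read counts, Col1a1 to Col3a1 and Col1a2 to Col1a1, in each library on a log axis, with the replicate number beside each point. The former is 0.178 to 0.312 in all LV libraries and 0.805 to 1.14 in all brain libraries, and the latter spreads over 17.7-fold in the LV and 39.3-fold in the brain.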

How the data were processed

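RNA-seq covered brain and left ventricle libraries of 5 control and 5 SCM rats. Raw counts of reads per gene were deposited by the authors, with no normalization or pooling, in build mRatBN7.2. The submitters' processing notes name HISAT2, StringTie and SAMtools, with no version or role given. No column lacked a sample. Depth limits only low genes: 3 counts are at most 0.134 CPM.

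Tests used edgeR 4.0.16 under R 4.3.3 (TMM, filterByExpr with a minimum count of 10 and total of 15, quasi-likelihood test, Benjamini-Hochberg adjustment over all genes). The 2 tissue comparisons and all 20 libraries for the interaction were fitted as separate models. Promoter sequences came from RefSeq. Members with no promoter there were Col1a1, Col3a1, Fn1, Lox and Mmp2. Simulated data were used to test the permutation of correlations over all libraries. Exact permutation tests were two-sided over all splits of 5 against 5. Correlations used 100000 permutations over all libraries and 14400 within groups, in Python 3.11.15 with numpy 2.4.6.

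Members and lists were chosen with earlier results of these data known. All members were named, with the genes most like the collagens. Pathway and marker lists are not analysed here, as no table paired identifiers with symbols. Each rat's tissues come from the same animal, and their deviations from group means had r of 0.0722 to 0.219. Alternatives were RLE, DESeq2 1.42.0, limma 3.58.1 with voom, no filter, 1 fit of all libraries, blocks, thresholds, pseudocount 5 and leaving out each rat.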

Additional observations from a re-analysis of the deposited data

Results flagged for a closer look

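For each member and group, the highest or lowest of the 5 libraries was compared with the rest by Dixon's ratio of the gap to the range, taken on CPM, at its 95% limit. Of 36 groups tested, 6 passed the limit. About 1 in 20, or 1.8, would pass if the values were normal and the groups independent. Col1a1 and Col3a1 of a library varied together in the LV, and normality of CPM was not checked. The 1.8 is therefore no valid measure of chance here. All 6 were high values of a fibrillar collagen, and 5 of them came from 2 rats. In control rat C5 the brain had 87.7 CPM of Col1a1, against 11.2 to 25.0 CPM in the other controls, and 76.9 CPM of Col3a1, against 13.8 to 29.7 CPM. In SCM rat M3 the brain had 27.0 CPM of Col1a1, against 8.38 to 10.9 CPM in the other SCM rats, and 28.7 CPM of Col3a1, against 7.91 to 12.8 CPM. The LV of M3 had 145.4 CPM of Col3a1, against 67.4 to 84.2 CPM. The brain of control rat C1 had 12.9 CPM of Col1a2, against 3.59 to 5.16 CPM in the other controls. On log2(CPM + 0.5), a scale added after seeing the data, 5 values passed, of which 3 were among these 6, namely Col1a1 in the brain and Col3a1 in the LV of M3 and Col1a2 in the brain of C1. The other 2 were low values in the control LV, Col1a2 at 5.09 CPM in C3, against 27.2 to 42.3 CPM, and Lox at 7.38 CPM in C1, against 13.0 to 15.4 CPM. Neither value of C5 passed on that scale, with ratios of 0.614 for Col1a1 and 0.558 for Col3a1.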

How the results depend on the processing

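The number of members called in the LV stayed between 3 and 6 over 18 alternatives (3 to 5 when 1 rat was left out), while the share of all genes called ran from 0.229% with the limit of 2 on the log2 fold change, with 3 members, to 23.2% at an unadjusted p, with 6. Without 1 rat this share was 2.04% to 7.07%. Col1a1 and Col3a1 kept their call in all 18, and Mmp2 lost it only to the limit of 2 on the log2 fold change. Col1a2 lost its call with limma-voom (adjusted p = 0.0798) and in 6 of the 10 fits without 1 rat. Postn passed with DESeq2 (adjusted p = 0.0153), with no filter (0.0455), in 1 fit of all libraries (0.00583) and without C5 (0.0139). In the brain 0 members were called, except 3 at an unadjusted p, where 14.3% of all genes passed. For the interaction the number was 0 to 3 over the fits without 1 rat, with 3 only without C5, where 1.29% of all genes passed. Without 1 library, 5 to 7 pairs kept their sign and a pooled absolute r of at least 0.769, the smallest among the pairs called over all libraries. This is a count without a test, and pooled values carry the difference between the groups. Centred on group means, 2 pairs had an adjusted p under 0.05 by the permutation test.

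Signs turned only in uncalled estimates. Leaving out 1 rat gave log2 fold changes in the LV of -0.22 to 0.49 for Ccn2 and -0.27 to 0.029 for Tgfb1, and in the brain of -0.053 to 0.54 for Lox and -0.057 to 0.20 for Ccn2. For the interaction it gave -0.31 to 0.055 for Lox, -0.35 to 0.43 for Ccn2, -0.71 to 0.087 for Col1a2 and -0.039 to 0.32 for Tgfb1, and Lox was at 0.085 with no rat block. The cause of these shifts was not tested.

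Replicate numbers are shared by different rats, and same-numbered libraries did not deviate together (r of -0.0786 to 0.154 in the LV and -0.224 to 0.141 in the brain). With the replicate number as a block, 4 members were called in the LV, with 2.25% of all genes, and 0 in the brain, with 0.0937%. In the interaction that block gave 0 members, with 0.933% of all genes, and 0.033 for Lox.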

Other observations

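The Col1a2 to Col1a1 count ratio of a rat's LV and that of its brain were set side by side after the values were seen. Over 10 rats the log2 ratios had r = 0.616 (permutation p = 0.0605) and rho = 0.673 (permutation p = 0.0387), and centred on group means r = 0.641 (permutation p = 0.0694) and rho = 0.758 (permutation p = 0.0291). No p here is adjusted for the choice of this ratio. M3 and M4 were low in both tissues, and C1, C2, C4, M2 and M5 were at 0.314 or above in both. C3 was the exception, with the lowest ratio of all LV libraries, 0.036, and 0.268 in the brain. The 2 rats farthest from the median in the LV were C3 and M3, and without them r was 0.916. That value leaves out the exception, so it does not show how firm the relation is. With 1 rat left out at a time r was 0.553 to 0.867, the highest without C3.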
